A study of Homo sapiens with 18 samples.

Results

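Unsorted MC26 cells were compared with unsorted MCF10A-CT cells over all genes, on 2 Affymetrix HG-U133 Plus 2.0 arrays per line, which were 4 of the 18 arrays of the series. The arrays were taken by their labels, and each gene was read by 1 probe set, the one with the highest mean over the 18 arrays. This gave 12171 genes above background of 19775 with a named probe set. MCF10A is an immortalised, nonmalignant human mammary epithelial line in which CDKN2A is deleted and MYC amplified, and MCF10A-CT is that line kept in standard medium with horse serum, insulin, hydrocortisone, cholera toxin and EGF. MC26 is 1 line, derived from MCF10A cells that were not sorted beforehand, by long exposure to bone morphogenetic protein 2 (BMP2) and interleukin 6 (IL6). It was still grown with both factors when the cells were collected, with IL6 at 10 ng/ml and BMP2 at 5 ng/ml by one label and 10 ng/ml by another, so a lasting change of the line and its response to the factors in the medium cannot be told apart. Unsorted cells were detached with trypsin and frozen. The other arrays used here were 2 of unsorted M1B26, a second line made with the same factors from cells first sorted for the BMP receptor BMPR1B, and the CD10- and CD10+ cells that flow cytometry separated from MCF10A-CT and MC26, with 2 arrays each. CD10, the product of MME, is a membrane peptidase.

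BMP2 binds a pair of receptor types that phosphorylate SMAD1, SMAD5 and SMAD9, and the ID genes and the inhibitory SMADs are early targets of this pathway in most cells. IL6 acts through its receptor and the shared chain gp130 (IL6ST) on JAK kinases and STAT3, which switches on SOCS3, the inhibitor that closes the loop. STAT3 and NF-kB together drive acute phase and antimicrobial proteins in epithelia, among them complement components and the calcium-binding proteins S100A8 and S100A9, and the mammary basal layer makes keratins 5 and 14.

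The MC26 arrays stood further apart than the control arrays. Over the genes tested, the correlation of replicate arrays was 0.976 for MCF10A-CT, 0.956 for MC26 and 0.971 for M1B26. Replicate 1 of MC26 correlated more with replicate 1 of M1B26 (0.973) than with its own replicate, and replicate 2 of MC26 did so with replicate 2 of M1B26 (0.970). The epithelial markers fitted the labels. Of 13 measured, 12 were above background in both lines and only KRT19 was near 0, and their summed intensity was 37450 and 43960 on the MCF10A-CT arrays and 38570 and 43090 on the MC26 arrays. Of 20 leukocyte markers measured, 8 were above background in either line, and the list summed to 547 and 407 in MCF10A-CT and to 677 and 388 in MC26, with PTPRC, the leukocyte marker CD45, between 1.06 and 8.21 on the 4 arrays, under the background level of 14.3. Of 16 fibroblast markers 11 were, and they summed to 1455 and 1399 in MCF10A-CT and to 1220 and 3746 in MC26, and of 12 endothelial markers 3 were (PECAM1, TEK and ROBO4), with sums of 106 and 104 against 260 and 136, while CDH5 lay between 0.681 and 1.91.

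In unsorted cells, 39 genes differed between the lines. Higher in MC26 were 5 of 15 acute phase and secretory defence genes (S100A8, S100A9, CFB, CFI and C1S), along with SOCS3, SERPINB3, SERPINB4, KRT14, DSG3, CLCA2, LCP1 and SAMSN1. ALDH3A1, UGT8, ST3GAL5, GATM and S100A4 were among the lower genes. The lists of cell division, respiratory chain, interferon response and BMP target genes gave no call. All lists were chosen with earlier results of these data known. By limma with Benjamini-Hochberg adjustment over the 12171 genes, 24 genes were higher in MC26 (0.197%) and 15 lower (0.123%), together 0.320% of those tested, while 972 genes had an unadjusted p under 0.05. The p-values measure the spread between arrays labelled as biological replicates, and 2 arrays a line limit the precision.

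All 39 differences were over 2-fold on the log2(intensity + 1) scale, and 15 of the higher and 8 of the lower genes were over 4-fold. The arrays of the lines did not overlap for the 39, nor for 4153 of all 12171 genes tested. As the 39 were called on these same arrays, this is no added evidence for them. In each of 14 other settings tried, the 39 kept their sign. CFI, HSD17B2, LCP1, LTBP1, NRCAM, SAMSN1, SERPINB3, SERPINB4 and UGT8 passed the threshold in all 14. The count itself depended on single arrays: it was 28 higher and 8 lower without MCF10A-CT replicate 1, 13 and 3 without MCF10A-CT replicate 2, and 69 and 80 without MC26 replicate 1. With the spread estimated from the 4 arrays alone it was 9 higher and 4 lower.

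**Figure D1:**
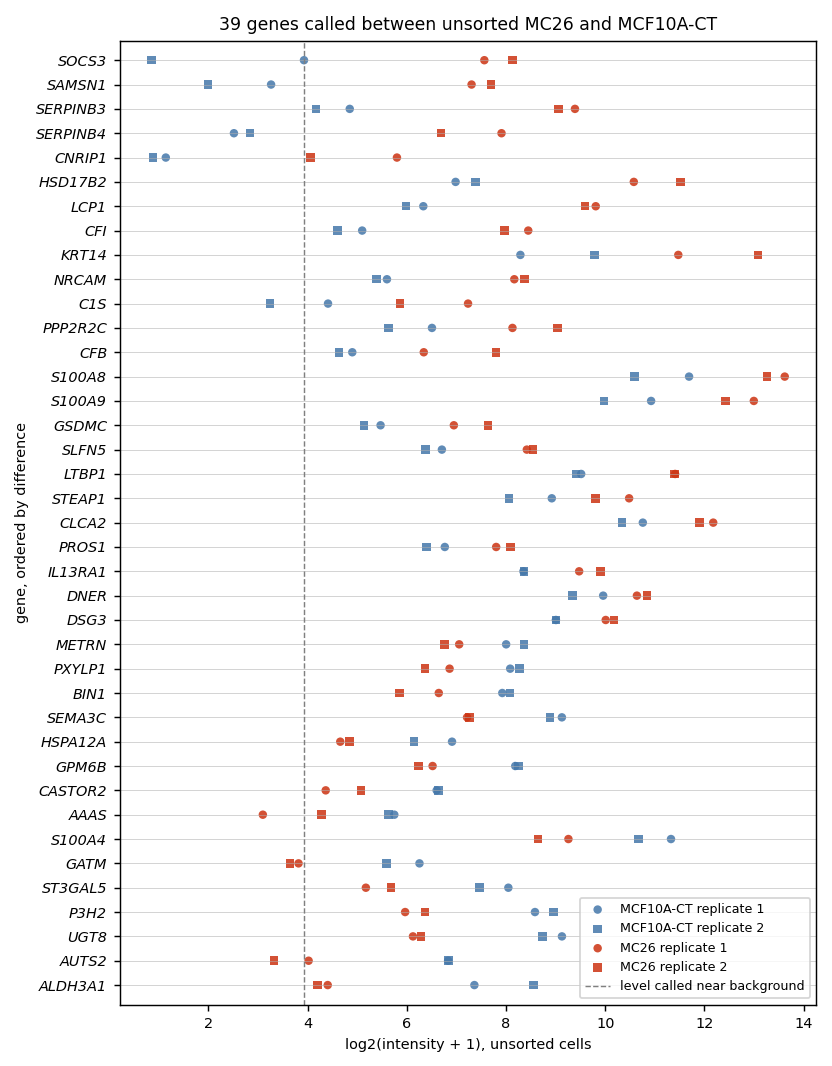
The 39 genes called between unsorted MC26 and unsorted MCF10A-CT, with the intensity on each of the 4 arrays on a log axis and genes ordered by their log2 difference. The arrays of the lines do not overlap for any of the 39 genes, as for 4153 of the 12171 genes tested. The differences run from 5.46 for SOCS3 to -3.65 for ALDH3A1.

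**Figure D2:**
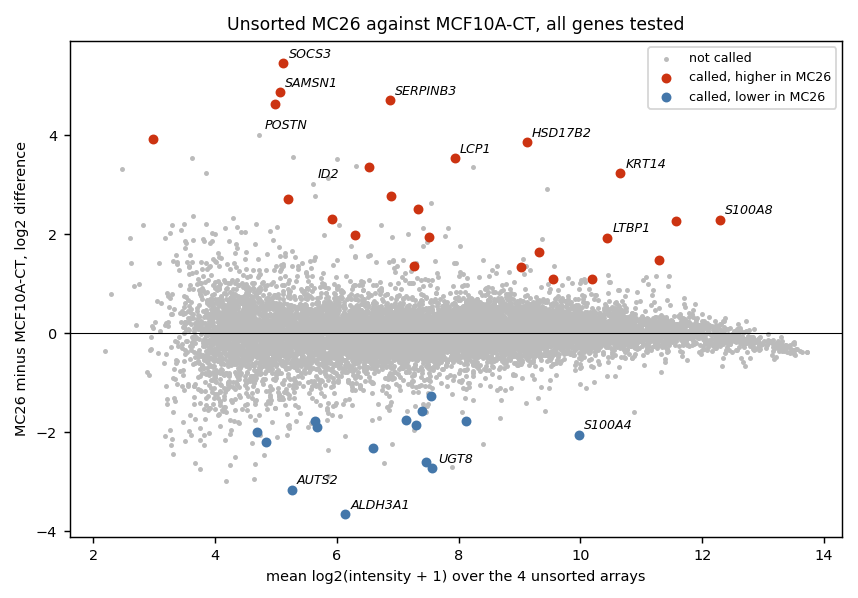
Log2 difference, MC26 minus MCF10A-CT, against the mean log2(intensity + 1) of the 4 arrays, 1 point for each of the 12171 genes tested, with the 24 genes called higher and the 15 called lower in colour. Most genes lie near the line at 0, and the median difference over all genes is 0.02.

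SOCS3 is the feedback inhibitor of JAK-STAT signalling. Its intensities were 14.2 and 0.808 in MCF10A-CT and 188 and 279.6 in MC26, with replicate 1 before replicate 2 here and where values of a gene are given as one line against the other. Both MC26 arrays were far above both control arrays, of which 1 was at the background level and 1 near 0. The log2 difference was 5.46 ± 0.70 (SE, n = 2 arrays per line; adjusted p = 0.00136, limma). Because the control was near background, its size depended on the constant added before taking logs and was 3.45 with 16 added instead of 1, below that of SERPINB3 (4.01) on that scale. A second SOCS3 probe set rose from 0.882 and 0.471 to 20.7 and 23.8, while another, above background on all 4 arrays, read 22.1 and 25.3 against 26.6 and 24.7, so the probe sets of this gene did not give the same difference. The adjusted p was 0.114 with the 4 arrays fitted alone.

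Of 23 receptors, kinases and feedback genes of the IL6 pathway tested, SOCS3 was the 1 gene called higher and 0 were called lower. The median log2 difference was 0.07 against 0.02 over all genes, and 3 of the 23 had an unadjusted p under 0.05. The lowest value was that of LIF, a cytokine of the IL6 family, with 67.9 and 34.5 in MCF10A-CT and 33.1 and 12.7 in MC26 (-1.20 ± 0.48; adjusted p = 0.503). IL6ST, the signalling chain gp130, had 1648 and 1344 in MCF10A-CT and 1711 and 1514 in MC26, a difference of 0.11 ± 0.22 (adjusted p = 0.986). STAT3 itself had 562 and 632 against 798 and 621 (0.24 ± 0.25; adjusted p = 0.957). For both genes the difference was within the spread of the arrays. IL6R, the ligand-binding chain, had 167 and 87.4 against 173 and 111 (0.20), and another of its probe sets had the opposite sign. CEBPB, a transcription factor of the acute phase response, had 5397 and 3821 against 5709 and 4566 (0.17), and JUNB 180.5 and 179 against 221 and 272 (0.45).

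Acute phase and secretory defence genes were the list with the most genes called higher, 5 higher and 0 lower of 15 tested, with 13 above 0 and a median of 0.96. Of all genes 0.197% were called higher and 0.123% lower, and 6432 of 12171 were above 0. The lists and their members were chosen with earlier results of these data known, so the rank of this list is no independent evidence. In CD10- cells the same list had 2 higher and 4 lower calls (3 above 0, median -0.59), beside 13.4% and 6.54% of all genes. In CD10+ cells it had 2 and 2 (4 above 0, median -0.70), beside 7.99% and 5.47%. Over all genes 7028 of 12171 were above 0 in CD10- and 6703 in CD10+ cells. S100A8 and S100A9 form calprotectin, a metal-binding antimicrobial protein, and were among the brightest genes of the comparison. S100A8 had 3303 and 1545 in MCF10A-CT and 12571 and 9804 in MC26 (2.30 ± 0.27; adjusted p = 0.000511). S100A9 had 1943 and 1002 against 8163 and 5481 (2.26 ± 0.31; adjusted p = 0.00178). Each MC26 array was over 2-fold above each control array for both genes. S100A12, a relative of the pair, went from 8.13 and 14.5 to 44.4 and 65.2, a difference of 2.20 ± 0.48 that did not pass (adjusted p = 0.0739).

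The other 3 called members belong to the complement system. CFI, the protease that cuts C3b and C4b, had 33.3 and 23.3 in MCF10A-CT and 348 and 249.7 in MC26 (3.36 ± 0.26; adjusted p = 7.49e-06). C1S, the protease of the C1 complex, had 20.3 and 8.48 against 149.7 and 57.3 (2.72 ± 0.42; adjusted p = 0.00625), with the controls near background and the MC26 arrays over 2-fold apart. CFB, the protease of the alternative pathway, had 28.9 and 23.9 against 80.2 and 222 (2.30 ± 0.43; adjusted p = 0.0279), again with the MC26 arrays over 2-fold apart. CFI passed in all 14 other settings, C1S in 11 and CFB in 7. C1R, the partner of C1S, had 31.3 and 44.3 against 142 and 77.9 (1.47 ± 0.36; adjusted p = 0.126). C3 showed overlapping arrays, 1473 and 1129.5 against 1277 and 1829. CD59, which protects cells from complement lysis, had 2051 and 1910.1 against 3461 and 4273 and a difference of 0.96 ± 0.19 just short of the threshold (adjusted p = 0.0514).

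SERPINB3 and SERPINB4 are the squamous cell carcinoma antigens, intracellular protease inhibitors encoded next to each other and nearly alike in sequence, so their probe sets may read each other's transcripts. SERPINB3 had 27.9 and 17.0 in MCF10A-CT and 669.9 and 530.5 in MC26 (4.71 ± 0.46; adjusted p = 0.000138). SERPINB4 had 4.72 and 6.14 against 239 and 102 (4.62 ± 0.61; adjusted p = 0.00165), with the controls near background, and its difference was 3.02 with 16 added. In both genes the MC26 arrays were far above the controls. These were the 2 calls of 19 clade B serpin and cornified envelope genes tested. Of the 19, 14 were above 0, beside 6432 of 12171 over all genes, and their median was 0.59. In the same list SPRR1B, a cornified envelope precursor, had 33.4 and 24.2 in MCF10A-CT and 15.03 and 417 in MC26, so that the MC26 arrays lay on both sides of the controls.

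KRT14, the keratin of the basal layer, had 312 and 878 in MCF10A-CT and 2841 and 8624 in MC26 (3.24 ± 0.56; adjusted p = 0.0146). Replicate 2 was about as much above replicate 1 in either line, and the lines did not overlap. KRT5, its usual partner, showed 5401 and 7924 against 5607 and 6075 (-0.16), and KRT14 was the only call among 22 basal, hemidesmosome and myoepithelial genes (median 0.14). DSG3, a desmosomal cadherin of stratified epithelium, had 513 and 514 against 1029.8 and 1160.4 (1.09 ± 0.21; adjusted p = 0.0316). It was the only call among 32 epithelial junction and identity genes, whose median was -0.09. CLCA2, a p53-regulated protein of differentiating epithelium, had 1730.3 and 1294 against 4629 and 3809.7 (1.49 ± 0.24; adjusted p = 0.00913).

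LCP1 and SAMSN1 are both known mainly from blood cells. LCP1 encodes L-plastin, an actin-bundling protein, and had 79.6 and 62.5 in MCF10A-CT and 896 and 773 in MC26. Its arrays were close within each line, and its adjusted p of 1.97e-06 was the lowest of all genes (difference 3.54 ± 0.24). SAMSN1, an adaptor protein of lymphoid and myeloid cells, had 8.61 and 2.97 against 157 and 206 (4.87 ± 0.55; adjusted p = 0.000374), from controls near background. None of the 8 leukocyte markers tested was called in either direction (median 0.22). In that list CD45 (PTPRC), NKG7 and LYZ lay under the background level on all 4 arrays, with NKG7 under 1. Others lay above it on all 4 arrays: CD79A (39.8 and 63.2 against 42.6 and 61.0), CSF1R (29.5 and 28.2 against 25.0 and 44.1), CD53 (33.0 and 45.6 against 44.0 and 22.3) and CORO1A (53.5 and 31.2 against 28.0 and 19.6). CD14, a monocyte receptor, had 223 and 137 against 399 and 129 and FCER1G, an Fc receptor chain, 24.1 and 20.9 against 23.8 and 31.1, so neither separated the lines. In bulk RNA of this kind, a change in the share of cells that make a transcript and a change in its amount per cell cannot be told apart.

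Among the other higher genes, HSD17B2, which oxidises estradiol to estrone, had 126 and 167 in MCF10A-CT and 1526 and 2923 in MC26 (3.86 ± 0.52; adjusted p = 0.00165). NRCAM, a cell adhesion molecule of neurons, had 47.5 and 40.9 against 286 and 330.1 (2.77 ± 0.28; adjusted p = 0.000161). LTBP1, which holds latent TGF-beta in the matrix, had 731 and 682 against 2717 and 2688 (1.94 ± 0.22; adjusted p = 0.000371). In these 3 genes the gap between the lines was much wider than the gap between replicates. LTBP1 was the only call among 16 TGF-beta ligands and targets, whose median was -0.24. CNRIP1, which binds the cannabinoid receptor, went from 1.21 and 0.841 to 54.8 and 15.6 (3.92 ± 0.76; adjusted p = 0.0361), but it started near background, passed in 5 of 14 settings and was 1.48 with 16 added.

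PPP2R2C, a regulatory subunit of protein phosphatase 2A, rose from 90.0 and 48.5 to 279 and 526 (2.52), and GSDMC, of the pore-forming gasdermins, from 43.4 and 34.3 to 123 and 199 (1.99). SLFN5, of the interferon-inducible Schlafen family, had 104 and 82.3 against 341 and 372 (1.94; adjusted p = 0.00609). IL13RA1, a receptor chain for IL4 and IL13, had 326 and 328 against 710.4 and 956 (1.33; adjusted p = 0.00623). The control arrays of IL13RA1 were nearly equal, and both MC26 arrays lay above them. STEAP1, a membrane metalloreductase, PROS1, the anticoagulant protein S, and DNER, a Notch-binding membrane protein, completed the 24, with differences of 1.65, 1.36 and 1.09. For 11 of the 24 genes, the probe set's name marks possible binding to related transcripts.

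ALDH3A1, an aldehyde dehydrogenase, fell from 164 and 375 in MCF10A-CT to 20.2 and 17.4 in MC26 (-3.65 ± 0.49; adjusted p = 0.00165). It was the only call among 17 stem and progenitor markers, whose median was 0.23. UGT8, which makes galactosylceramide, had 558 and 425 against 68.8 and 77.3 (-2.72 ± 0.29; adjusted p = 0.000254). ST3GAL5, which makes the ganglioside GM3, had 264 and 176 against 35.1 and 50.5 (-2.32 ± 0.31; adjusted p = 0.00165). The controls of these 3 genes were well above background and both MC26 arrays lay far below them. P3H2, a prolyl hydroxylase of basement membrane collagen, had 383 and 497 against 61.6 and 81.4 (-2.61 ± 0.35; adjusted p = 0.00175). S100A4, often used as a mesenchymal marker, had 2566 and 1632 against 611 and 399 (-2.05 ± 0.38; adjusted p = 0.0279), and was the only call among 28 mesenchymal and matrix genes (median 0.10). VIM, the mesenchymal intermediate filament, had 5278 and 6654 against 5967 and 4765, with the lines overlapping.

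AUTS2, a regulator of transcription in neurons, GATM, the first enzyme of creatine synthesis, and AAAS, a nucleoporin, fell to near background in MC26. AUTS2 had 113 and 113 in MCF10A-CT and 15.2 and 9.02 in MC26 (-3.16 ± 0.47), GATM 75.4 and 47.2 against 13.1 and 11.6 (-2.19 ± 0.41). AAAS had 52.8 and 48.7 against 7.57 and 18.4 (-2.002 ± 0.38; adjusted p = 0.0279), and with 16 added it was -1.23 and no longer passed (adjusted p = 0.0705). CASTOR2, of the arginine-sensing family, had 96.2 and 99.0 against 19.6 and 32.8 (-1.90 ± 0.32; adjusted p = 0.013). The remaining 6 were GPM6B, a myelin-type membrane protein (-1.84), HSPA12A, a heat shock protein relative (-1.78), SEMA3C, a secreted semaphorin (-1.77), BIN1, which bends membranes (-1.76), PXYLP1, a phosphatase of proteoglycan synthesis (-1.57), and METRN, a secreted neurotrophic factor (-1.27). The same mark applied to 8 of the 15 lower genes.

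Promoter windows from 250 bases before to 50 after the annotated start were taken from RefSeq (GRCh38.p14), where 30 of the 39 called genes had one, 17 of the higher and 13 of the lower. Both strands were searched for the STAT element TTCNNNGAA, the core of the interferon response element GAAANNGAAA and the BMP SMAD element GGCGCC. CFB, PROS1 and CLCA2 are shown because they were the called genes with a STAT match, and SOCS3 because it is a known STAT3 target. Each line reads 5′ to 3′ on the gene's strand, with the matched bases in capitals.
CFB: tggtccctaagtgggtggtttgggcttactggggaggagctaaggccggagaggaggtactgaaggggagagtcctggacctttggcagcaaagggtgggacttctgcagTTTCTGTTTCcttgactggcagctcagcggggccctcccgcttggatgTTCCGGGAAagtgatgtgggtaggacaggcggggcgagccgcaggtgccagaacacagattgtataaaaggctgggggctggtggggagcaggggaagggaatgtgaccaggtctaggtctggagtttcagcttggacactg
PROS1: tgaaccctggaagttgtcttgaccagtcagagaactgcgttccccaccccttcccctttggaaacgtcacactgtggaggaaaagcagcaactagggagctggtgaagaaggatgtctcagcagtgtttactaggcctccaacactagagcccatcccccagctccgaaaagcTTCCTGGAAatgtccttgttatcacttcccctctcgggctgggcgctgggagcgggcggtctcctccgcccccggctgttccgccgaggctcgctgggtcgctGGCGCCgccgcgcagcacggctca
CLCA2: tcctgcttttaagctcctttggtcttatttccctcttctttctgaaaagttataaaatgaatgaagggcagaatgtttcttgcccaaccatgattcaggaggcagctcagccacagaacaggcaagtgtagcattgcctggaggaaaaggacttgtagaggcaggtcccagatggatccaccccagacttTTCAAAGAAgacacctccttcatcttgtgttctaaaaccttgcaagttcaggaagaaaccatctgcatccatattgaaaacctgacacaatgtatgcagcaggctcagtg
SOCS3: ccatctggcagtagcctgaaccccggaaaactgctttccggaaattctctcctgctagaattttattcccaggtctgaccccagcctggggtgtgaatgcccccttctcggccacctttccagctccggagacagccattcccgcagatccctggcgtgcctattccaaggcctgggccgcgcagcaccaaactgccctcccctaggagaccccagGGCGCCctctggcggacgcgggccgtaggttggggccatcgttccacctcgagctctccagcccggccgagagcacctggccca

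The CFB window (chr6:31945845-31946144, plus strand) held TTCCGGGAA from 92 to 84 bases before the start and, further upstream, TTTCTGTTTC, the interferon response core read on the other strand. The PROS1 window (chr3:93973847-93974146, minus strand) held TTCCTGGAA and GGCGCC, and the CLCA2 window (chr1:86423921-86424220, plus strand) TTCAAAGAA. The SOCS3 window (chr17:78360876-78361175, minus strand, 1 of 2 windows of the gene) held GGCGCC and no TTCNNNGAA. The STAT element was in 3 of 17 higher genes (17.6%) and 0 of 13 lower genes, against 8.43% of the 9915 tested genes with a window. The interferon response core was in 2 of 17 (11.8%, CFB and LTBP1), against 3.89%. GGCGCC was in 6 of 17 higher genes (35.3%) and 5 of 13 lower genes (38.5%), against 36.4%. These matches are descriptions of letters, and binding was not measured.

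In unsorted cells the BMP pathway gave no call. Of 16 receptors and transducers tested, 0 were called in either direction (median 0.13), and of 21 targets and antagonists 0 (median 0.41). Of these 21, 6 had an unadjusted p under 0.05, beside 972 of 12171 over all genes. In CD10- cells 4 of the 21 were called higher and 1 lower, beside 13.4% and 6.54% of all genes. In CD10+ cells 2 were called higher and 0 lower, beside 7.99% and 5.47%. BMPR1B, a type I receptor, had 235 and 227 in MCF10A-CT and 286 and 266 in MC26 (0.26 ± 0.27; adjusted p = 0.955), and BMPR2, the type II receptor, 361 and 329 against 347 and 422 (0.15 ± 0.26; adjusted p = 0.981). ID1, an inhibitor of basic helix-loop-helix factors and a direct target, had 2038 and 1737 against 2938 and 6067 (1.17 ± 0.31; adjusted p = 0.179). Both MC26 arrays of ID1 were above both controls, but they were 2-fold apart from each other. In sorted cells ID1 was called higher in MC26, by 1.46 in CD10- (adjusted p = 0.00585, limma) and 0.999 in CD10+ cells (adjusted p = 0.047). It was also called higher in unsorted M1B26 than in MCF10A-CT (1.51; adjusted p = 0.0381, limma). HEY1, a target of BMP and Notch, had 104 and 55.4 against 175 and 211 (1.33 ± 0.33; adjusted p = 0.137).

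For several BMP targets only replicate 2 of MC26 was high. ID2, a relative of ID1, had 11.6 and 22.1 in MCF10A-CT and 18.7 and 965 in MC26. ID3 had 212 and 442 against 80.6 and 2860.1, so that replicate 1 of MC26 was below both controls. SMAD6, the inhibitory SMAD, was under the filter and not tested, with 8.79 and 1.64 against 11.7 and 174. Without replicate 1 of MC26, ID1 and ID2 passed the threshold (log2 difference 1.69, adjusted p = 0.0146, and 5.83, adjusted p = 0.00802), and with both arrays neither did.

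MME, the gene of CD10, had 12.7 and 5.95 in MCF10A-CT and 34.0 and 35.5 in MC26. The MC26 arrays were close to each other and above both controls, which were near background, and the difference of 1.87 ± 0.64 did not pass (adjusted p = 0.354). Its second probe set read 1.69 and 9.51 against 54.4 and 42.5. CDKN2A, deleted in this line, was low in both lines, with 27.5 and 14.7 against 15.3 and 10.7, and MYC had 4659 and 4363 against 4762 and 2959 (-0.26; adjusted p = 0.967).

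The study asked which signalling programmes separate the transformed lines from the control. At the level of single genes, the interferon response list had 0 calls of 41 tested and a median of 0.12. Its members with the smallest p were IRF9, the DNA-binding subunit of the interferon factor ISGF3 (56.6 and 58.3 against 121 and 108, 0.98 ± 0.25, adjusted p = 0.157), DTX3L, a ubiquitin ligase (0.83), and DDX60, a helicase (1.05). The MC26 arrays of IRF9 were close to each other and both above the controls, without passing the threshold. In this list 12 of the 41 genes had an unadjusted p under 0.05, beside 972 of 12171 over all genes. MHC class I and antigen processing genes had 0 calls of 19 (median 0.07), with the immunoproteasome subunit PSMB9 at 76.6 and 47.0 against 121 and 116.

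TNF and NF-kB response genes had 1 call of 36, CFB, and a median of 0.26. Members of the interleukin-1 family had 0 calls of 11, with 10 above 0, beside 6432 of 12171 over all genes, and a median of 0.73. IL1A, an alarmin of epithelial cells, had 1737 and 578 in MCF10A-CT and 2598 and 1645 in MC26 (1.04 ± 0.39; adjusted p = 0.445), with the lines overlapping. IL1RAP, the receptor accessory chain, had 259 and 267 against 444 and 458 (0.77 ± 0.28; adjusted p = 0.418), with the lines apart. Chemokines had 0 calls of 8 (median 0.44). CXCL3, which attracts neutrophils, had 70.1 and 39.2 against 108 and 236 (1.59), and CXCL8 823 and 143 against 255 and 418 (-0.07).

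Genes of the EGF family and of ERK output had 0 calls of 28 and a median of -0.04. TGFA, an EGF receptor ligand, had 395 and 287 against 682 and 578 (0.90), while IER3, an ERK-induced gene, had 4202 and 2713 against 2819 and 1352 (-0.79). Oxidative phosphorylation genes had 0 calls of 68, a median of -0.04 and a narrow range of differences, from -0.41 for SDHA, a subunit of complex II (817 and 829 against 689 and 557, adjusted p = 0.68), to 0.32. No call was made among 34 hypoxia and glycolysis genes (median 0.00), 23 cholesterol genes (-0.004), 23 NRF2 targets (-0.01), 20 immediate early and heat shock genes (-0.14), 30 Wnt and Notch genes (-0.07) or 16 matrix metalloproteinases and inhibitors (0.11). Luminal genes had 0 calls of 14 and a median of -0.28, with KRT8, a luminal keratin, at 707 and 825 against 477 and 485 (-0.67 ± 0.24; adjusted p = 0.418). In the integrated stress response list, 24 of 29 genes were above 0, beside 6432 of 12171 over all genes, and 0 were called (median 0.32). Among 30 CDK inhibitors, cyclins and p53 targets, PLK2, a p53-induced kinase, came nearest to a call (409.9 and 309 against 741 and 903, 1.20 ± 0.26, adjusted p = 0.0719). Of the list medians given here, that of the IL6 pathway turned to -0.04 under quantile normalization, and those of the cholesterol and NRF2 lists changed sign while staying near 0.

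**Figure D3:**
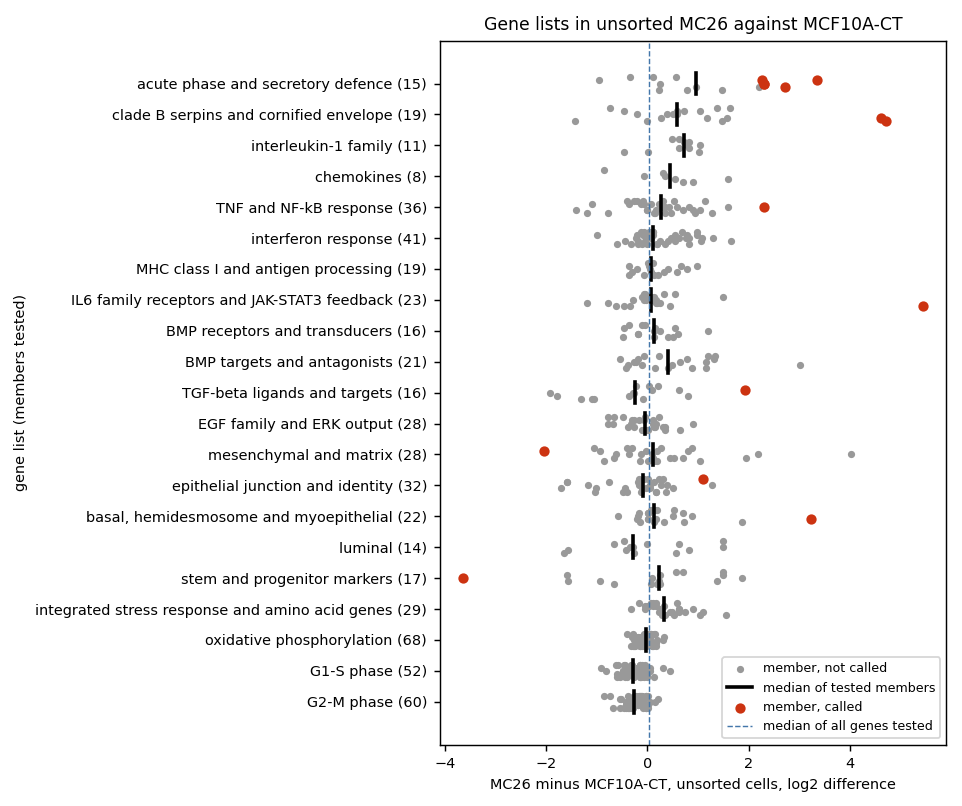
Log2 difference, MC26 minus MCF10A-CT in unsorted cells, for the members of the gene lists, with 1 point per gene tested, called genes in colour and the median of each list as a black bar. The acute phase list has a median of 0.96 and 5 calls, and the oxidative phosphorylation list lies within -0.41 and 0.32.

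The ENI10 signature, selected in the study from sorted MCF10A-CT cells, was split into its cell division part and the rest. Of the cell division part, 0 of 50 genes were called in unsorted cells and 3 were above 0, beside 6432 of 12171 over all genes. Their median was -0.28. Of the other 103 members, 4 were called higher and 1 lower, beside 0.197% and 0.123% of all genes, with a median of -0.02. As the sorted MCF10A-CT arrays belong to this series, the direction of the signature is no independent evidence.

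The difference between the lines was set against the same difference in sorted cells. The sorted values come from other arrays, which however entered the same fit, its estimate of the spread, the choice of probe sets and the filter. CD10- and CD10+ cells are fractions of the same line. The labels do not say whether same-numbered fractions came from the same culture. Calls in both fractions are thus not independent agreements. Of the 15 lower genes, 13 were called lower in CD10- and 12 in CD10+ cells, 0 were called higher in either, and AAAS and CASTOR2 were called in neither. Of the 24 higher genes, 12 were called higher in CD10- and 10 in CD10+ cells, with S100A8 and CFB called lower in both and S100A9 in CD10- cells. Over all genes, 13.4% were called higher and 6.54% lower in CD10- cells, and 7.99% and 5.47% in CD10+ cells. The medians of the 15 were -2.002 unsorted, -1.95 in CD10- and -1.75 in CD10+ cells, and those of the 24 were 2.41, 1.10 and 1.10.

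The count of all genes called in sorted cells depended on scaling and on single arrays. It was 1635 higher and 796 lower in CD10- cells and 973 and 666 in CD10+ cells, and 1363 and 1368, and 1036 and 1123, after quantile normalization. In CD10- cells it was 395 and 150 without MCF10A-CT replicate 2, 396 and 322 without MC26 replicate 1, and 762 and 296 without MC26 replicate 2. In CD10+ cells it was 105 and 129 without MCF10A-CT replicate 2, 366 and 179 without MC26 replicate 1, and 124 and 282 without MC26 replicate 2.

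LCP1 and ALDH3A1 kept their differences. LCP1 was 3.07 in CD10- and 3.42 in CD10+ cells against 3.54 unsorted, and ALDH3A1 -3.18 and -3.40 against -3.65. S100A4 and ST3GAL5 were at -2.57 and -2.82, and at -3.10 and -2.97. STEAP1 was 2.57 and 2.08 against 1.65 in unsorted cells. Each of these sorted differences passed the threshold in both fractions. GPM6B likewise passed in both, at -2.63 and -2.83.

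**Figure D4:**
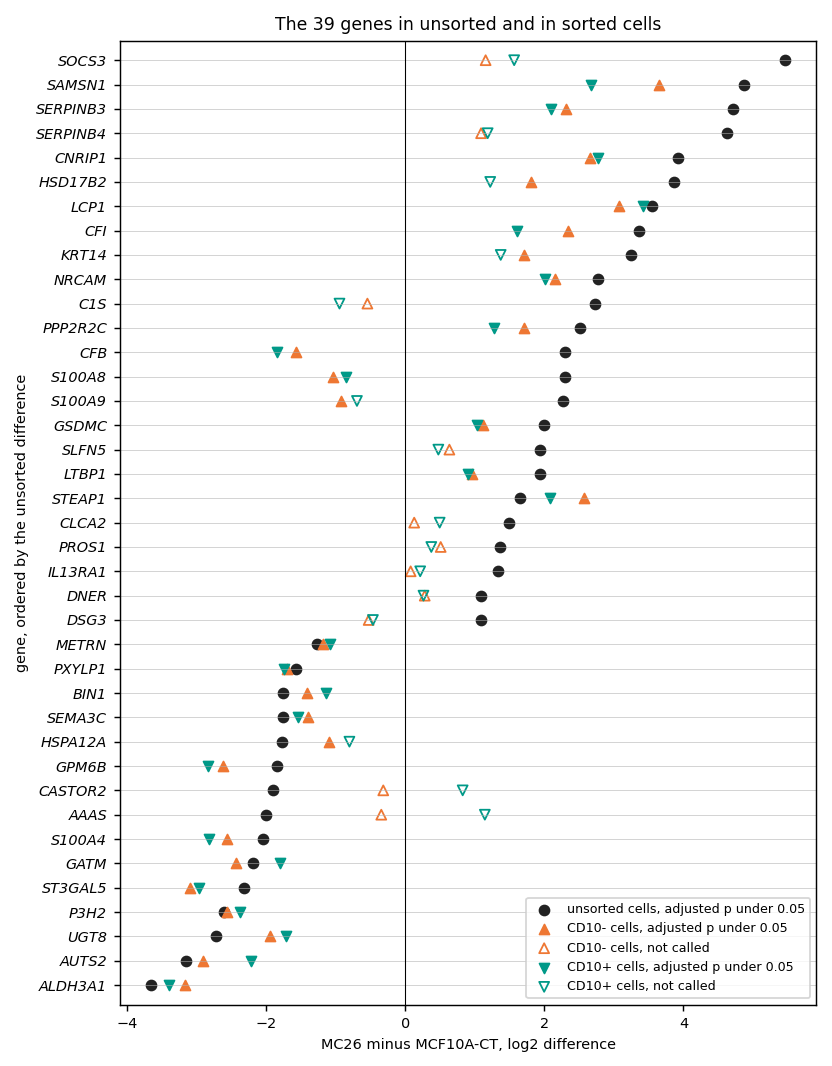
Log2 difference, MC26 minus MCF10A-CT, of the 39 called genes in unsorted, CD10- and CD10+ cells, with filled marks where the adjusted p is under 0.05 and open marks where it is not. The lower genes lie on the same side in all cells apart from AAAS and CASTOR2, which are above 0 in CD10+ cells, while S100A8, S100A9, CFB, C1S and DSG3 lie on opposite sides in unsorted and sorted cells.

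S100A8 reversed between unsorted and sorted cells, and its level in the control was high after sorting. In sorted MCF10A-CT it had 10164 and 10809 in CD10- and 11297 and 10849 in CD10+ cells, about as high as unsorted MC26, and in sorted MC26 it had 5642 and 4571 and 5667 and 6682. S100A9 differed by -0.93 (adjusted p = 0.0459) in CD10- and -0.70 (adjusted p = 0.139) in CD10+ cells. CFB had 220.3 and 164 and 540.5 and 264 in sorted MCF10A-CT against 83.9 and 47.5 and 89.6 and 120.4 in sorted MC26. C1S had 113 and 113 and 226 and 192 in sorted MCF10A-CT, far above its 20.3 and 8.48 in unsorted cells, and its sorted differences of -0.55 and -0.95 did not pass. SOCS3 was higher in sorted than in unsorted MCF10A-CT, at 41.9 and 104 and 31.8 and 61.0, against 154 and 143 and 134 and 131 in sorted MC26, and its differences of 1.15 and 1.56 did not pass either.

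The difference of the differences was tested for every gene as the unsorted line difference minus the mean of the sorted ones. Over all genes 248 were above (2.04%) and 491 below (4.03%), or 501 and 661 after quantile normalization. This test shares the unsorted arrays by which the 39 genes were found, which favours them. It also counts the CD10- and CD10+ arrays of a line as independent. If same-numbered fractions deviated together, its SEs and p-values could be too small, and this was not tested. Of the 24 higher genes 14 passed the test, each with the larger difference in unsorted cells, and of the 15 lower genes AAAS and CASTOR2 passed. The value was 3.24 ± 0.33 for S100A8 (adjusted p = 0.000638), 4.01 ± 0.53 for CFB (adjusted p = 0.00296) and 4.10 ± 0.85 for SOCS3 (adjusted p = 0.014). SERPINA3, an acute phase antiprotease not called in unsorted cells, was at 445 and 399.7 in unsorted MCF10A-CT and 437 and 318 in unsorted MC26, against sorted differences of -5.20 and -4.64.

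The counts of this test depended on single arrays. They were 74 above and 97 below without unsorted MCF10A-CT replicate 1, 34 and 79 without replicate 2, 68 and 72 without unsorted MC26 replicate 1, and 415 and 623 without its replicate 2. Leaving out 1 sorted array gave 134 to 486 above and 263 to 978 below. The probes at the 3′ end of ACTB exceeded those at its 5′ end by 0.64 to 1.10 on the log2 scale on unsorted arrays and by 0.15 to 0.42 on sorted arrays. For GAPDH the same difference ran from -0.08 to 0.13 on unsorted and from -0.105 to 0.088 on sorted arrays, so the ranges overlapped. Of these measures of RNA quality, that of ACTB moved with sorting. The part of RNA quality in these results was not tested.

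Cell division genes separated the lines in sorted cells and gave no call in unsorted cells. Of 60 G2-M genes, 0 were called in unsorted cells and 6 were above 0 (median -0.26), while 58 were called higher in CD10- and 46 in CD10+ cells (medians 2.02 and 1.35). Of 52 G1-S genes, 0 were called in unsorted cells (median -0.30), and 48 and 46 were called higher in the sorted fractions (medians 2.33 and 1.96). Of all genes 13.4% were called higher in CD10- and 7.99% in CD10+ cells (medians 0.13 and 0.08), and 6432 of 12171 were above 0 in unsorted cells. In the test of the difference of the differences, 55 of the 60 and 43 of the 52 passed, each with the lower value in unsorted cells. Of all genes 4.03% passed in that direction. MCM10, a replication initiation factor, had 415 and 338 in unsorted MCF10A-CT and 117 and 614 in unsorted MC26. The 2 MC26 arrays thus lay on both sides of the controls. In sorted MCF10A-CT it had 79.1 and 6.99 in CD10- and 98.3 and 22.2 in CD10+ cells, and in sorted MC26 543 and 545, and 475 and 534. Its sorted differences were 4.43 and 3.39, and the difference of the differences was -4.39 ± 1.16 (adjusted p = 0.0377). PLK1, a mitotic kinase, had 140.5 and 289.6 against 88.7 and 137 in unsorted cells (-0.86), and differences of 1.84 and 1.85 in sorted cells (adjusted p of the difference = 0.00509). It had 48.4 and 36.7 in CD10- and 32.6 and 45.3 in CD10+ cells of MCF10A-CT, and 154 and 153, and 130 and 152, in those of MC26. For both genes every sorted MCF10A-CT array lay below the unsorted ones.

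M1B26 and MC26 were compared with the same 2 control arrays, so their differences from MCF10A-CT share that error and are given side by side. Over all genes, 0.542% were called higher and 0.131% lower in unsorted M1B26 than in MCF10A-CT. Of the 24 genes higher in MC26, 20 were called higher in M1B26 (median 2.15), and of the 15 lower genes 5 were called lower (median -1.24). LCP1 was 3.54 in MC26 and 3.72 in M1B26, SOCS3 5.46 and 5.39, SERPINB3 4.71 and 4.46, and S100A8 2.30 and 2.41. The exceptions among the higher genes were KRT14 (2.08, adjusted p = 0.158), CFB (1.46, adjusted p = 0.225), DSG3 (0.60, adjusted p = 0.384) and CLCA2 (1.10, adjusted p = 0.0523).

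Between MC26 and M1B26 themselves, 12 genes differed (0.0986%), 3 of them among the 39. SAMSN1 had 157 and 206 in MC26 and 2467 and 1963 in M1B26, the latter higher by 3.60 (adjusted p = 0.0131). UGT8 had 68.8 and 77.3 in MC26 and 296 and 294 in M1B26, which is higher by 2.00 (adjusted p = 0.0118). AAAS had 7.57 and 18.4 and 84.8 and 91.9, higher in M1B26 by 2.79 (adjusted p = 0.00585) and in M1B26 above the control. In unsorted cells SAMSN1 thus followed the order MCF10A-CT, MC26, M1B26, while the lowest levels of UGT8 and AAAS were those of MC26. For AAAS this did not hold in sorted cells. In CD10- cells it had 67.29 and 110.3 in MCF10A-CT against 73.8 and 61.82 in MC26. In CD10+ cells it had 31.23 and 43.69 against 67.25 and 101.9. IL1RL1, the IL33 receptor, and SRGN, the granule proteoglycan serglycin, were among the other 9, at 956 and 581 for IL1RL1 and 2718 and 2069 for SRGN in M1B26, against 22.9 and 19.3 and 229.9 and 63.5 in MC26.

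The replicates of MC26 differed from each other in whole groups of genes. Replicate 2 was over 2-fold above replicate 1 in 595 genes (4.89%) and over 2-fold below it in 678 (5.57%). The replicates of MCF10A-CT were over 2-fold apart in 575 genes (4.72%) and those of M1B26 in 745 (6.12%). Of the called genes, 5 higher and 1 lower had MC26 arrays over 2-fold apart. These comparisons have 1 array a side and no test.

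Genes of division were higher in replicate 2, with a median log2 difference of 1.13 for the 52 G1-S genes and 0.95 for the 60 G2-M genes, against -0.02 over all genes. In MCF10A-CT these medians were -0.17 and 0.06, and in M1B26 1.04 and 0.69. Of the 29 integrated stress response and amino acid genes, 16 were over 2-fold higher in replicate 1 and 0 in replicate 2 (median -1.15). ASNS, asparagine synthetase, had 3909 and 343 in MC26, 939.6 and 503 in MCF10A-CT and 2970.3 and 287 in M1B26, and PHGDH, the first enzyme of serine synthesis, 1149.6 and 108, 444 and 286 and 853 and 165. Replicate 1 was thus the higher array of each line for both genes, with the widest gap in MC26.

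Of the 21 BMP targets, 9 were over 2-fold higher in replicate 2 of MC26 and 0 in replicate 1. ID3 had 143 and 1461 in M1B26 and DLX2, a homeobox target of BMP, 19.2 and 277 in MC26, 39.8 and 21.1 in MCF10A-CT and 35.5 and 97.1 in M1B26. POSTN, the matrix protein periostin, had 7.79 and 1288 in MC26 but 6.01 and 5.17 in MCF10A-CT, and CD24, a surface glycoprotein, 70.1 and 4492 and 156 and 259. With POSTN, the fibroblast markers COL1A1 (44.7 and 317), DCN (51.3 and 283) and FAP (222 and 835) were higher in replicate 2 of MC26. Of the 9 fibroblast markers tested, 8 were higher in replicate 2 of MC26 (median 1.16), and 4 in replicate 2 of MCF10A-CT (median -0.18). COL1A2 (11.2 and 30.2), LUM (3.22 and 16.7) and THY1 (13.1 and 19.0) were above the background level only in replicate 2 of MC26. COL3A1, PDGFRA and PDGFRB lay under that level on all 4 arrays. The part of other cell types in this split was not tested. EPCAM, an epithelial adhesion molecule, had 2210.2 and 529 in MC26 and 3619.7 and 2902 in MCF10A-CT (-1.58 ± 0.46; adjusted p = 0.238).

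**Figure D5:**
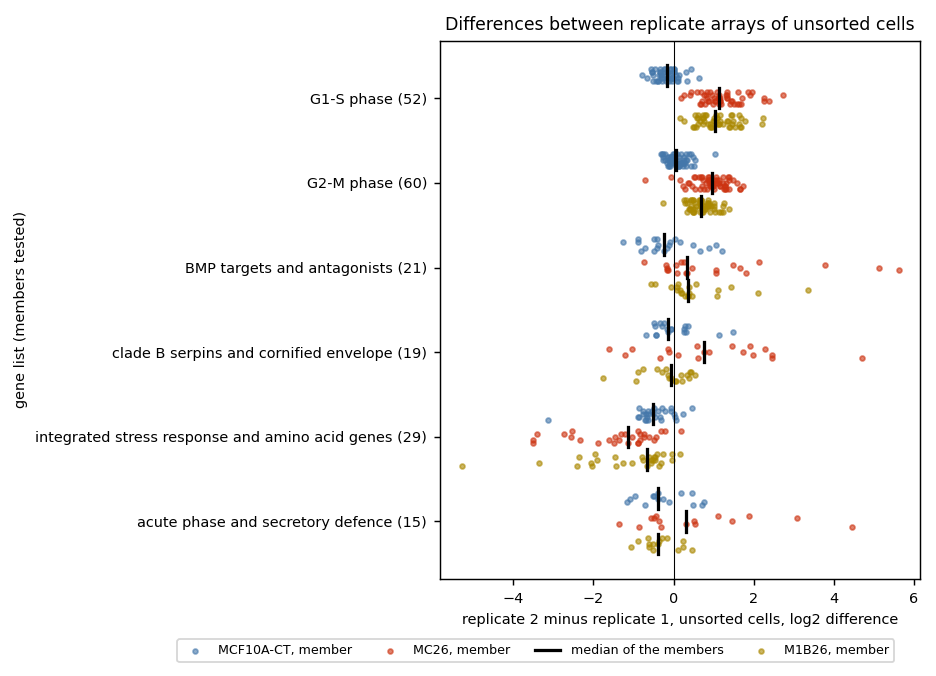
Log2 difference between replicate 2 and replicate 1 of unsorted MCF10A-CT, MC26 and M1B26 for the members of 6 gene lists, with 1 point per gene and the median of each list as a black bar. In MC26 the G1-S genes have a median of 1.13 and the integrated stress response genes one of -1.15.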

How the data were processed

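RNA of 18 cultures or sorted fractions of 3 mammary epithelial lines was hybridised to Affymetrix HG-U133 Plus 2.0 arrays, 2 per group in 9 groups. The submitters' processing notes name Affymetrix Expression Console and MAS5, with versions not given in the sources used here, and the authors deposited linear intensities, 1 per probe set and array, with the same median (16.65) on each array and upper quartiles from 95.1 to 124. The study's methods name quantile normalization and RMA, which these values do not show.

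Of 54675 probe sets, 62 were controls, 1801 had several genes, 11721 none and 41091 a single gene, of which 54 kept an old symbol. For 19775 genes the probe set with the highest mean log2(intensity + 1) was kept, and the 12171 genes above the median of all probe sets (log2 3.93, intensity 14.3, here called the background level) entered the test. Near background means a group mean not above that level. One fit of 9 group means over the 18 arrays was made with limma 3.58.1 in R 4.3.3 (lmFit, then eBayes with an intensity trend), with 9 residual and 6.28 prior degrees of freedom. Tests were two-sided, with Benjamini-Hochberg adjustment in each contrast and an adjusted p under 0.05 as the threshold. Errors after ± are limma's SEs, with a median of 0.296 for the unsorted difference. The script was tested on simulated data.

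Groups came from the array titles. The 35 gene lists and the members were chosen with earlier results of these data known, and lists are described by counts and medians. By rule, names were taken from the 15 largest calls each way, up to 6 called or 3 uncalled members of a list, the 5 largest each way of the other contrasts and a set of fixed genes (MME, CDKN2A, MYC and genes of the BMP and IL6 pathways), while the other called genes, KRT5, VIM, EPCAM, LIF, CXCL8, CEBPB, JUNB, SPRR1B, C3, C1R, CD59, S100A12 and the genes of the replicate comparison were named after their values were seen. Alternatives were another added constant, no filter, quantile normalization, centring, the highest probe set on each array, other array subsets, no trend, a replicate block and leaving out each array.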

Additional observations from a re-analysis of the deposited data

Results flagged for a closer look

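For 17 of the 50 genes checked (the 39 called genes and those given whatever their values) the difference between MC26 and MCF10A-CT was not the same in unsorted and in sorted cells, by limma's test of the difference between the log2 differences (unsorted minus the mean of CD10- and CD10+; adjusted p under 0.05), which 739 of all 12171 genes passed. The unsorted difference was the higher one by 4.097 for SOCS3, 4.015 for CFB, 3.488 for SERPINB4, 3.468 for C1S, 3.243 for S100A8, 3.072 for S100A9 and 2.51 for SERPINB3. It was higher by 2.344 for HSD17B2, 1.587 for DSG3, 1.577 for IL6R, 1.384 for SLFN5, 1.383 for CFI, 1.187 for IL13RA1, 1.178 for CLCA2 and 1.001 for LTBP1. The value was -2.4 for AAAS and -2.153 for CASTOR2, whose decrease was deeper in unsorted cells. All but IL6R were among the 39 genes found on the unsorted arrays that this test also uses. The test counted the CD10- and CD10+ arrays of a line as independent, which the labels do not settle. IL6R was not called in unsorted cells and was lower in sorted MC26, and another of its probe sets had the opposite sign in unsorted cells.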

How the results depend on the processing

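All 39 called genes kept their sign in the 14 other settings, 22 passed in at least 10 of them and 9 in all. Over these genes and the others given whatever their values, 700 combinations of gene and setting gave 560 of the same sign and on the same side of the threshold, 2 that newly passed (ID1 and ID2 without MC26 replicate 1) and 5 of opposite sign, and the rest no longer passed. The 5 were of genes not called with all arrays. Leaving out 1 array took ID3 from -1.91 to 3.22 and MYC from -0.61 to 0.0789, with the signs turned without MC26 replicate 2, and IL6R from -0.27 to 0.66 and IL6ST from -0.0343 to 0.26, with the signs turned without MCF10A-CT replicate 2 (IL6R also without MC26 replicate 1, -0.12). With the 4 arrays alone 9 genes were higher and 4 lower, and with the 6 unsorted arrays 12 and 7, where fewer arrays estimate the spread. Leaving out 1 array gave 13 to 69 higher and 3 to 80 lower genes in unsorted cells, 395 to 2081 and 150 to 929 in CD10- cells, 105 to 1406 and 129 to 494 in CD10+ cells, and 34 to 486 above and 72 to 978 below in the difference between unsorted and sorted cells. In these fits the lone array of a line is assumed to vary like the other groups, and those for sorted cells and for the difference were chosen after seeing the data. Quantile normalization gave 1368 lower genes in CD10- and 1123 in CD10+ cells and 501 genes above in the difference, and centring gave 1311 lower genes in CD10- cells and 471 above in the difference. The cause was not tested.

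Same-numbered arrays deviated together in MC26 and M1B26 (r = 0.458) but hardly in MCF10A-CT and MC26 (0.0763) or MCF10A-CT and M1B26 (0.118), and the labels do not say that numbers mark a shared batch, so the numbers were not taken to pair the samples. Whether MC26 and M1B26 arrays of a number shared a batch was not tested. With replicate as a block, 36 genes were higher and 20 lower over all arrays, and 86 and 68 over the 6 unsorted arrays; the 39 genes passed in both fits. Intensities carry no counts, so dim genes are limited by the background level of 14.3, and a difference from it has no fixed size.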
